A study of Homo sapiens with 12 samples.

Results

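The liver makes most of the proteins of blood coagulation and complement, and 41 genes of this kind were followed in HuH-7, a cell line grown from a human hepatocellular carcinoma that carries a mutant p53. The members were the gene probes of the array whose printed gene name was on a list of 19 coagulation genes and 22 complement genes, out of 29123 gene names on the array. Coagulation and complement were kept apart throughout, with SERPING1 and VTN counted as complement. All 41 were on the array, with 68 probes between them. Cells of this single line had received the vehicle DMSO, 28 µM SLMP53-2 or 42 µM SLMP53-2 for 24 h, with 4 biological replicates in each group and 1 array for each replicate. SLMP53-2 is a small molecule studied as a reactivator of mutant p53, and the doses were 2 and 3 times its IC50. The title of the highest dose and the series' design give 42 µM, which is used here, whereas another label of the same arrays gives 48 µM. RNA was labelled in 1 colour. In such bulk RNA, fewer cells of a type and less RNA per cell cannot be told apart.

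Coagulation is a cascade of serine proteases that are made as inactive precursors. The contact and intrinsic factors and the extrinsic factor VII with tissue factor converge on factor X, which with factor V turns prothrombin into thrombin, and thrombin turns fibrinogen into fibrin. Antithrombin and the protein C system hold the cascade in check, and plasmin dissolves the clot. Complement works by a similar chain of cleavages. The classical pathway starts at the C1 complex of C1q, C1r and C1s, and the lectin pathway at mannose-binding lectin and its proteases. The alternative pathway runs through factor B. All of these pathways split C3 and then C5, after which C6, C7, C8 and C9 insert into the membrane. Soluble and membrane-bound regulators protect the cell's own surface. Hepatocytes secrete nearly all of the soluble proteins, under factors such as HNF1, HNF4 and C/EBP, so that their genes are often read as a sign of hepatocyte character.

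In short, 5 of the 39 members that could be tested were called at 42 µM, beside 3.32% of all genes tested. F7 was called higher, and CPB2, KNG1, C4BPA and C8A lower. None of these calls was kept with the slide as a block or when any single DMSO array was left out. None passed the test at 28 µM with all arrays. The RefSeq sequences of GRCh38.p14 that lie directly before the transcription start of these 5 genes are printed here because the genes are the ones the results turn on. Each line gives 250 bases, 5′ to 3′ on the strand of the gene, ending at the base before the start, and capitals mark matches to the motifs named after them.
F7 (chr13:113105541-113105790, plus strand): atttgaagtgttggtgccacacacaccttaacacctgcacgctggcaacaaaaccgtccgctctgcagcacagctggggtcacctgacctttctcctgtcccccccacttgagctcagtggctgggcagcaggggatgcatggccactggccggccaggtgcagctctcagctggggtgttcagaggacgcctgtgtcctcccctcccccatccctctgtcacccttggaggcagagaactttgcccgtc
KNG1 (chr3:186717109-186717358, plus strand): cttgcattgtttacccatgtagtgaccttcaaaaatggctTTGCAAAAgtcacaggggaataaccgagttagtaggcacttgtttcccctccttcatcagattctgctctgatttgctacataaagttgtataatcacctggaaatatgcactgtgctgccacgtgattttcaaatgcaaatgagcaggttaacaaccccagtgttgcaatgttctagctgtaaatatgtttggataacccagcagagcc
CPB2 (chr13:46105034-46105283, minus strand): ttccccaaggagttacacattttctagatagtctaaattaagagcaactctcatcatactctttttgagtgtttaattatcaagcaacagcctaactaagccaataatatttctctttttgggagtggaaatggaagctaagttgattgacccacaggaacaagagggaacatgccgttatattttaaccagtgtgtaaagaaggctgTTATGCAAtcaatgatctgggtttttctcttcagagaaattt
C4BPA (chr1:207103983-207104232, plus strand): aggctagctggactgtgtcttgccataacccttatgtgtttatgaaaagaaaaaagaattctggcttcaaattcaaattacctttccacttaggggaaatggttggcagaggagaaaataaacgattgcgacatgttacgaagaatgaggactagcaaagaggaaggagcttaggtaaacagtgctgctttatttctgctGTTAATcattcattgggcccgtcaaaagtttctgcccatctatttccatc
C8A (chr1:56854547-56854796, plus strand): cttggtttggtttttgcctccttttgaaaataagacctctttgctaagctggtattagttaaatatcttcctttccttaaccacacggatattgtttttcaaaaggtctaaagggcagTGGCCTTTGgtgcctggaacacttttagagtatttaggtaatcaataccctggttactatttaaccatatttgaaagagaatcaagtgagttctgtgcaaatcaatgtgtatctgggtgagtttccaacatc
Searched on both strands were GTTAAT (the core of a HNF1 site), CAAAGNNCA (HNF4), TTGCNNAA (C/EBP), TGATGNAA (a combined C/EBP and ATF element) and GGGCGG (a GC box). The match in KNG1 is a C/EBP motif 210 to 203 bases before the start, and that in CPB2 is a C/EBP motif at 42 to 35 bases. C8A has a HNF4 motif 132 to 124 bases before the start, and C4BPA a HNF1 core at 50 to 45 bases. No printed match overlaps another, and these letters did not occur in the window of F7. Promoters were on hand for 35 of the 41 members. The HNF1 core was in 14.3% of them against 6.23% of all 35116 promoters, HNF4 in 14.3% against 4.44%, C/EBP in 20% against 9.05%, the combined element in 0% against 3.14% and the GC box in 14.3% against 42.6%. These shares describe letters in a window and not binding. KNG1 and CPB2 share the C/EBP motif, and no motif was in all 4 genes that fell.

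Across the 12 arrays, 65.0% to 85.0% of the gene spots were well above background, the lowest and the highest shares both at 28 µM, and no gene spot was saturated. Replicates of a group correlated at 0.962 to 0.991 over the tested probes. The array of 28 µM replicate 4 lay close to DMSO in the called members, unlike the other 28 µM arrays, as shown further on, and results at 28 µM are therefore also given without it. The arrays lay on 5 slides, each group on 4 of them. The cells' label was checked on 9 hepatocyte markers. Of these 8, among them ALB, AFP and HNF4A, were detected on all 12 arrays and TTR on some. A probe whose spots were all flagged as outliers counted as not detected, so TTR need not have been dim there. At either dose 0 of the 9 markers were called or passed with an unadjusted p below 0.05 and the limit on size that is defined with the tests. Of all genes tested, 3.32% were called at 42 µM and 0% at 28 µM, so that 0 among 9 markers says little. Of the markers of other cells, TEK and PTPRC were detected on no array and PECAM1, CDH5, COL1A1, DCN and PDGFRB on some, whereas VWF, COL1A2, CD14, CD68 and CD163 were detected on all. Their levels were low beside those of the hepatocyte markers. Summed over markers on the linear scale, arrays ran from 158300 to 179500 for hepatocyte markers. The sums were 264 to 318 for endothelial, 1165 to 1460 for fibroblast or stellate and 419 to 595 for macrophage or leukocyte markers.

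Detection came first, since a probe near background cannot show a decrease. A probe counted as detected on an array when the scanner software flagged it as well above background, with outlier-flagged spots left out. On all 12 arrays at least 1 probe was detected for 16 of the 19 coagulation genes and 18 of the 22 complement genes. The exceptions were few. F9, the factor IX gene of the intrinsic pathway, was detected on none of the arrays. KLKB1, which encodes prekallikrein, was detected on 2 DMSO, 2 28 µM and 3 42 µM arrays, and F13B, the carrier subunit of factor XIII, on 3, 3 and 4. Among the terminal complement genes, C6 was detected on 1 array only, of 28 µM. C8B was detected on 3, 2 and 1 arrays of DMSO, 28 µM and 42 µM, C8G on 3, 2 and 3, and C9 on 3 of each. These genes have only an upper bound where they were not detected, and small changes in them could not be seen. Of the 68 probes, 54 were detected on all arrays and 3 on none.

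Testing required a probe to be well above background on 2 or more of the 4 arrays in any group, which kept 63 member probes, 18 coagulation genes and 21 complement genes. F9 and C6 did not pass. Values are normalized log2 intensities, and a difference of 1 on this scale is a doubling. Calls needed an adjusted p below 0.05 from limma together with a change of 0.6 or more in size, up or down, on any probe of the gene. The brightest probe stands for a gene in what follows.

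The first question was what the higher dose did against DMSO. At 42 µM, 3 of 18 coagulation genes were called, 1 higher and 2 lower, and 2 of 21 complement genes, both lower, against 3.32% of the 24168 genes tested. With the slide as a block, no member was called and the 5 genes had adjusted p of 0.0678 to 0.122 from limma. Over all genes 1.74% were called higher and 1.58% lower. The median log2 fold change was 0.05 for the coagulation genes and −0.03 for the complement genes, beside −0.02 for all genes. In absolute size the medians were 0.21 and 0.22, beside 0.15 for all genes. Without adjustment, at a p below 0.05 and the same limit on size, 1 coagulation gene (F7) passed upward and 2 downward, and 1 complement gene (C2) upward and 2 downward, against 3.42% of all genes higher and 2.61% lower. By sign, 10 of 18 coagulation genes and 10 of 21 complement genes were above DMSO. The lists as wholes thus stayed near 0 on balance, and the calls were single genes in both directions. The plot of changes by role gives every tested member.

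**Figure D1:**
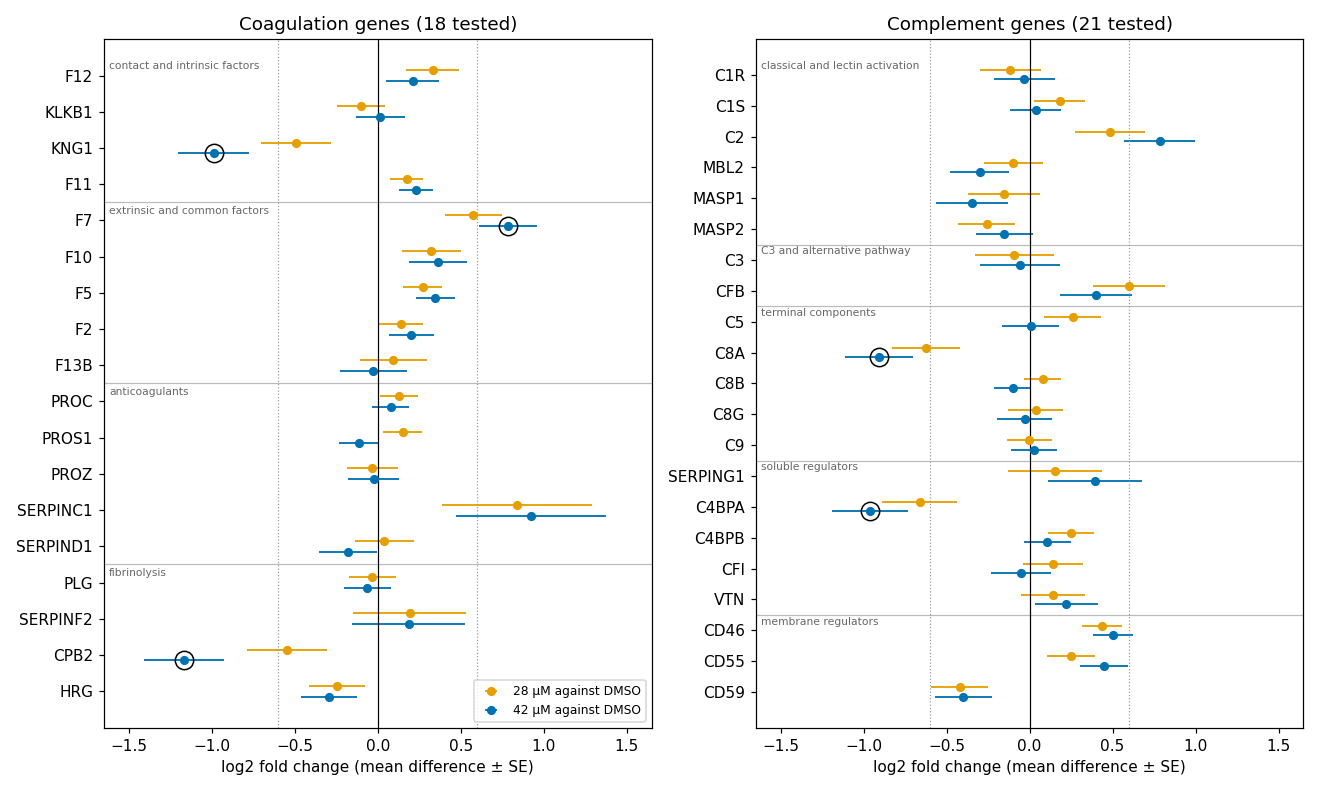
Log2 fold change of the 39 tested members at 28 µM (orange) and 42 µM (blue) against DMSO, with the standard error of limma's model as bars, 4 arrays a group, ordered by role. Open circles ring the 5 members called at 42 µM, from −1.17 for CPB2 to 0.78 for F7, and dotted lines mark the limit of 0.6.

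Among the 5 contact and intrinsic genes, KNG1 was the member that was called. It encodes kininogen, the source of bradykinin. Its normalized log2 intensities were 9.93, 10.05, 10.09 and 10.09 on DMSO, 9.65, 9.17, 9.18 and 10.19 at 28 µM, and 8.82, 8.75, 9.25 and 9.39 at 42 µM, in the order of replicates 1 to 4. All 42 µM arrays lay below all DMSO arrays, and 28 µM replicate 4 lay above them. KNG1 fell by 0.99 on the log2 scale at 42 µM (SE 0.21, 1.98-fold lower, adjusted p = 0.0264 from limma), and its change at 28 µM was −0.49 (adjusted p = 0.416). F11, the gene of factor XI, differed little between groups but had a small spread. It read 7.09, 6.98, 6.94 and 7.01 on DMSO, 7.29, 7.15, 7.1 and 7.18 at 28 µM, and 7.15, 7.13, 7.41 and 7.24 at 42 µM. Every treated array was above every DMSO array, but the change of 0.23 at 42 µM (SE 0.10) had an adjusted p of 0.301. F12, which encodes factor XII, was at 0.21 and KLKB1 at 0.02, neither past the test.

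The 5 extrinsic and common factors had 1 call, F7. Its product, factor VII, binds tissue factor and starts the extrinsic pathway. F7 read 8.58, 8.78, 8.70 and 9.0 on DMSO, 9.62, 9.27, 9.62 and 8.86 at 28 µM, and 9.60, 9.76, 9.27 and 9.57 at 42 µM. All 42 µM arrays lay above all DMSO arrays, and 28 µM replicate 4 lay within the DMSO range. The log2 fold change was 0.78 at 42 µM (SE 0.17, 1.72-fold higher, adjusted p = 0.0306) and 0.58 at 28 µM (adjusted p = 0.244). F5, the cofactor of factor Xa, read 9.82, 9.92, 9.95 and 9.87 on DMSO, 10.21, 10.41, 10.04 and 9.97 at 28 µM, and 10.12, 10.39, 10.16 and 10.27 at 42 µM. Its treated arrays were all above its DMSO arrays, with a change of 0.35 at 42 µM (SE 0.12, adjusted p = 0.144). F10 encodes factor X, the protease on which both arms converge. It read 10.50, 10.42, 10.65 and 10.72 on DMSO, 10.51, 11.08, 11 and 10.98 at 28 µM, and 10.44, 11.27, 10.97 and 11.06 at 42 µM. Replicate 1 of either dose was within the DMSO range and the other treated arrays above it, and the change at 42 µM was 0.36 (SE 0.18, adjusted p = 0.352). F2, the prothrombin gene, was at 0.20 and F13B at −0.03.

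None of the 5 anticoagulant genes was called. SERPINC1, which encodes antithrombin, had the third largest change of the coagulation genes but the widest spread. It read 8.95, 8.92, 8.17 and 7.77 on DMSO, 9.94, 9.81, 9.21 and 8.20 at 28 µM, and 10.21, 10.01, 8.33 and 8.95 at 42 µM. The groups overlapped, replicates 1 and 2 being the highest of each group, and the change of 0.92 at 42 µM (SE 0.45) had an adjusted p of 0.362. PROC, PROS1 and PROZ, which encode the vitamin K-dependent proteins C, S and Z, were at 0.08, −0.11 and −0.02, and SERPIND1, heparin cofactor II, at −0.18. The brightest PROS1 probe is placed at chr3:90250795-90250854 in hg19, whereas the other probes of the gene lie at chr3:93592149-93592208 and chr3:93611895-93611954, so its value is uncertain as one of PROS1 itself.

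In fibrinolysis CPB2 had the largest change at 42 µM of the 39 tested members. It encodes the thrombin-activatable fibrinolysis inhibitor, a carboxypeptidase that trims fibrin and so slows its breakdown by plasmin. CPB2 read 12.05, 12.40, 12.19 and 12.31 on DMSO, 11.90, 11.36, 11.28 and 12.21 at 28 µM, and 11.01, 10.44, 11.25 and 11.59 at 42 µM. All 42 µM arrays were below all DMSO arrays, and 28 µM replicate 4 was within the DMSO range. CPB2 fell by 1.17 on the log2 scale at 42 µM (SE 0.24, 2.24-fold lower, adjusted p = 0.0230), after a change of −0.55 at 28 µM (adjusted p = 0.426). Plasminogen itself, PLG, was at −0.06, the plasmin inhibitor SERPINF2 at 0.18 and the histidine-rich glycoprotein HRG at −0.29, none past the test.

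**Figure D2:**
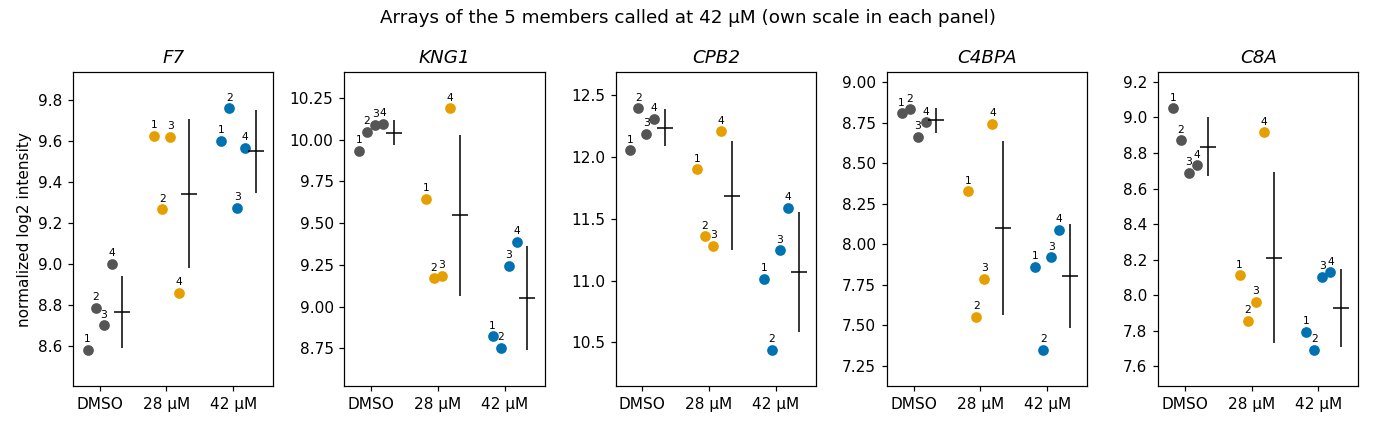
Normalized log2 intensity of the 5 called members on each array by group, labelled with the replicate number, with the group mean and SD (n = 4) as a black bar beside the points and a scale of its own for each gene. The 42 µM arrays do not overlap the DMSO arrays in any panel, and 28 µM replicate 4 sits at or near the DMSO arrays in all 5.

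On the complement side no gene of classical or lectin activation was called. C2, the protease precursor shared by both pathways, came closest. It read 10.68, 11.03, 10.41 and 10.41 on DMSO, 11.38, 11.49, 11.14 and 10.45 at 28 µM, and 11.41, 11.62, 11.25 and 11.37 at 42 µM. All 42 µM arrays were above all DMSO arrays, but the log2 fold change of 0.78 (SE 0.21, 1.72-fold) had an adjusted p of 0.0660. The proteases C1R and C1S, which form the C1 complex with C1q, were at −0.03 and 0.04. Mannose-binding lectin, MBL2, and its proteases MASP1 and MASP2 were at −0.30, −0.34 and −0.15, with adjusted p of 0.484 to 0.775. The central component C3 was at −0.06, and factor B, CFB, at 0.40 (adjusted p = 0.423).

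Among the terminal components C8A fell and the others that were tested did not pass. C8A is the alpha chain of C8, which helps to form the pore of the membrane attack complex. It read 9.05, 8.87, 8.69 and 8.73 on DMSO, 8.11, 7.86, 7.96 and 8.92 at 28 µM, and 7.79, 7.69, 8.10 and 8.13 at 42 µM. The 42 µM arrays were all below the DMSO arrays, and of the 28 µM arrays only replicate 4 reached the DMSO range. C8A fell by 0.91 at 42 µM (SE 0.20, 1.87-fold lower, adjusted p = 0.0321), with a change of −0.62 at 28 µM (adjusted p = 0.284). The genes of the other C8 chains, C8B and C8G, were at −0.10 and −0.03, close to background as given above. C5 was at 0.01 and C9 at 0.03.

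Of the soluble regulators C4BPA was called. It encodes the alpha chain of C4b-binding protein, a cofactor for the breakdown of C4b. C4BPA read 8.81, 8.83, 8.66 and 8.75 on DMSO, 8.33, 7.55, 7.78 and 8.74 at 28 µM, and 7.86, 7.35, 7.92 and 8.09 at 42 µM. The 42 µM arrays were again all below the DMSO arrays, and 28 µM replicate 4 was within them. C4BPA fell by 0.96 at 42 µM (SE 0.23, 1.95-fold lower, adjusted p = 0.0396), with a change of −0.66 at 28 µM (adjusted p = 0.308). C4BPB, the gene of the beta chain that binds protein S, was at 0.11 (adjusted p = 0.818). The protease factor I, CFI, was at −0.05, vitronectin, VTN, at 0.22 and the C1 inhibitor SERPING1 at 0.40, none past the test.

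None of the 3 membrane regulators was called, and their values differed in sign. CD46, a cofactor for factor I on the cell surface, read 9.31, 9.48, 9.25 and 9.20 on DMSO, 9.88, 9.91, 9.69 and 9.50 at 28 µM, and 9.71, 9.72, 9.91 and 9.91 at 42 µM. All treated arrays were above all DMSO arrays. The change of 0.50 at 42 µM (SE 0.12) had an adjusted p of 0.0409 but stayed under the limit on size. CD55, which speeds the decay of the C3 convertases, read 8.05, 7.98, 8.15 and 8.16 on DMSO, 8.41, 8.43, 8.30 and 8.20 at 28 µM, and 8.84, 8.75, 8.36 and 8.17 at 42 µM. Treated arrays did not overlap DMSO arrays, though 42 µM replicate 4 was only just above DMSO, and the change was 0.45 (SE 0.14, adjusted p = 0.123). CD59, which blocks the membrane attack complex, read 11.71, 11.37, 11.11 and 11.29 on DMSO, 11.18, 10.48, 10.93 and 11.21 at 28 µM, and 11.06, 10.81, 10.93 and 11.09 at 42 µM. Its 42 µM arrays were all below its DMSO arrays, with a change of −0.40 (SE 0.17, adjusted p = 0.272).

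By overlap alone on the brightest probes, the 42 µM arrays were all above the DMSO arrays for 3 coagulation genes (F11, F7 and F5). They were all above them for 3 complement genes (C2, CD46 and CD55) too, against 5.93% of all genes. They were all below them for 2 coagulation genes (KNG1 and CPB2) and 3 complement genes (C8A, C4BPA and CD59), against 7.01%. The 11 tested coagulation genes whose arrays are not given above had changes of −0.29 to 0.21 at 42 µM with adjusted p of 0.464 to 0.980. Those of the corresponding 15 complement genes ran from −0.34 to 0.40 with adjusted p of 0.423 to 0.992.

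The lower dose was asked the same question. At 28 µM no coagulation gene and no complement gene was called by limma, as for all genes tested (0%). The smallest adjusted p was 0.244 among coagulation genes and 0.215 among complement genes. The study itself reports differentially expressed genes at both doses with these limits. Here no gene was called at 28 µM with the authors' normalized values either, and the reason was not tested. With an unadjusted p below 0.05 and the same limit on size, 0 of 18 coagulation genes passed. Among complement genes CFB passed upward and C4BPA and C8A downward, against 1.66% of all genes higher and 1.34% lower. On the brightest probes, the 28 µM arrays were all above the DMSO arrays for F11, F5, CD46 and CD55, against 2.79% of all genes. They were all below them for no member, against 2.93%. The medians were 0.13 for coagulation and 0.08 for complement, beside −0.02 for all genes.

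A single array stood out in the 28 µM values of the called genes. In the 5 genes called at 42 µM, 28 µM replicate 4 differed from the DMSO mean by −0.03 to 0.15, whereas the other 28 µM arrays differed by −1.21 to −0.34 in the genes that fell at 42 µM and by 0.50 to 0.86 in F7. It was not at the DMSO level throughout, since its values of 10.96 for PROS1, 11.58 for C3 and 9.27 for SERPINF2 lay above every DMSO array. Because the array was singled out on the called genes themselves, the values without it are a description and no evidence of a change at 28 µM. Without replicate 4, limma called F7 at 28 µM (0.74, adjusted p = 0.0255), and in complement C2 (0.71, adjusted p = 0.0474), C8A (−0.86, adjusted p = 0.00954) and C4BPA (−0.88, adjusted p = 0.0380). The number of all genes called was 651 with that array left out. KNG1 (−0.71, adjusted p = 0.0562) and CPB2 (−0.72, adjusted p = 0.153) still did not pass. On the 3 slides that held both DMSO and 28 µM arrays, the difference within a slide was −1.09 to 0.23 for C8A, −1.02 to 0.08 for C4BPA, −0.77 to 0.02 for CPB2, −0.75 to 0.10 for KNG1 and 0.16 to 1.04 for F7. The slide of replicate 4 gave the highest of these for the genes that fell at 42 µM and the lowest for F7. The array map shows the same array nearest to white in the called rows of its group.

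**Figure D3:**
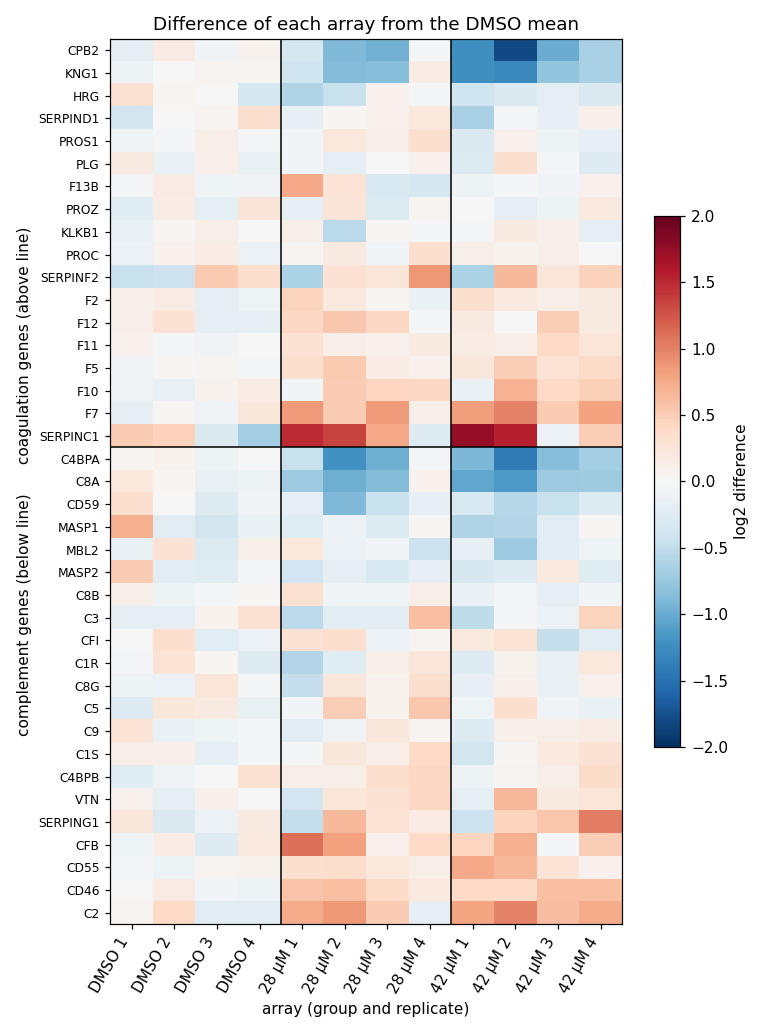
Difference of each array from the mean of the 4 DMSO arrays for the 39 tested members, on the log2 scale, blue below and red above, with rows ordered by the change at 42 µM within coagulation (upper block) and complement (lower block). CPB2, KNG1, C4BPA and C8A are blue on all 42 µM arrays and near white on 28 µM replicate 4, and most rows between the ends of the blocks are pale.

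Set against each other directly, the doses differed in no member past the limits. At 42 µM against 28 µM limma called 0 genes of all tested (0%), with an adjusted p of at least 0.9995 for every member. With an unadjusted p below 0.05 and the limit on size, CPB2 alone among the members was lower at 42 µM, against 0.228% of all genes lower and 0.157% higher, with a difference of −0.62 (SE 0.24). On the brightest probes the arrays of the doses separated for no member, against 0.687% of all genes all above and 0.923% all below. On the dimmer MBL2 probe, detected on all 12 arrays, they did separate. Its 42 µM arrays reached 6.83 at most and its 28 µM arrays 6.89 at least. The difference on that probe was −0.43 (SE 0.12, adjusted p = 0.9995 from limma). The differences were −0.50 for KNG1, −0.30 for C4BPA, −0.28 for C8A and 0.21 for F7. On 42 µM replicate 2 the 5 called genes were the furthest from the DMSO mean of any array, from −1.80 for CPB2 to 0.99 for F7. The comparisons of either dose share the DMSO arrays.

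Of the tested members, 15 had more than 1 tested probe, and the probes of a gene did not always give like values. KNG1 was called on its bright probe, whose annotated position spans 2167 bases of the genome, while its other probes, close to background, were at −0.10 and −0.09. The dimmer F7 probe was at 0.15 (SE 0.13), although it was detected on all arrays. C2 had 4 probes at 0.78, 0.44, 0.50 and, near background, 0.10. CD46 had 0.50 and 0.51 on its tested probes and CD55 0.45, 0.57 and −0.08. The brightest CD59 probe stood alone at −0.40, with the others at −0.01 to 0.01. CPB2, C8A and C4BPA had a single probe each, so that no other probe bears on their calls. Every probe of a gene was fitted with the same 12 arrays, and the reasons for these differences were not tested.

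**Figure D4:**
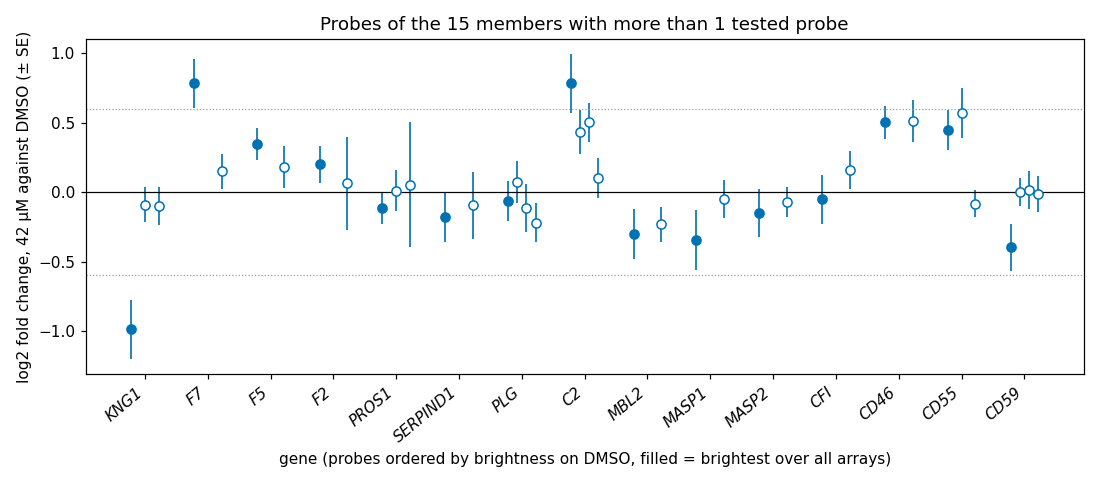
Log2 fold change at 42 µM against DMSO for each tested probe of the 15 members with more than 1, with the standard error as bars, the brightest probe filled and dotted lines at 0.6. The bright probes of KNG1 (−0.99) and F7 (0.78) are past the limit and their dimmer probes are not, whereas both tested CD46 probes lie near 0.50.

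Several members are neighbours in the genome, and the called members had neighbours that were not called. Positions are those of the brightest probes in hg19, as the scanner files give them. F7 (chr13:113773878-113773937) lies 29.4 kb before F10, which lies 23.1 kb before PROZ, and their changes at 42 µM were 0.78, 0.36 and −0.02. C8A (chr1:57383492-57383551) lies 25.9 kb from C8B, with −0.91 and −0.10. C4BPA (chr1:207318066-207318125) lies 54.2 kb from C4BPB and 191.9 kb from CD55, with −0.96 beside 0.11 and 0.45. KNG1 (chr3:186457190-186459356) lies 61.2 kb from HRG, with −0.99 beside −0.29. CPB2 (chr13:46627484-46627543) has no other member near it. C2 and CFB, 5.56 kb apart, were at 0.78 and 0.40. Whether neighbours differ from each other was not tested.

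Other genes of the same systems were taken from a separate list. Of 23 further coagulation and fibrinolysis genes, all tested, 0 were higher and 1 was lower at 42 µM. That gene was FGA, the fibrinogen alpha chain, called on 1 of its 3 probes, which went from 10.80 ± 0.25 on DMSO to 10.16 ± 0.15 at 42 µM (SD, n = 4, log2 fold change −0.64, adjusted p = 0.0351). The brightest FGA probe was at −0.29 (adjusted p = 0.717), and FGB and FGG, the other fibrinogen chains, were at 0.31 and 0.30. The largest changes of the brightest probes were those of the protease inhibitors SERPINE2 (1.03, adjusted p = 0.0756) and TFPI2 (−0.92, adjusted p = 0.0524) and of thrombomodulin, THBD (0.56, adjusted p = 0.0732). With an unadjusted p below 0.05 and the limit on size, SERPINE2 passed upward and FGA, GGCX and TFPI2 downward. Of 25 further complement genes 24 were on the array and 19 were tested, and 0 were called or passed with an unadjusted p below 0.05 and the limit on size. The ficolin gene FCN1 was at −0.28 (adjusted p = 0.429). At 28 µM none of these genes was called, and without adjustment SERPINE2 passed upward and C3AR1, the receptor of the anaphylatoxin C3a, downward.

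The 5 calls depended on single arrays and on the slide, while the sizes moved less. The 42 µM and DMSO arrays of these genes do not overlap, so the sign within a slide was fixed in advance. The sizes below come from the arrays that made the calls and are a description, not further evidence. Each group spanned 4 slides, and on the 3 slides that held both DMSO and 42 µM arrays the difference within a slide was −1.75 to −1.15 for CPB2, −1.33 to −0.80 for KNG1, −1.32 to −0.89 for C4BPA, −1.0 to −0.77 for C8A and 0.49 to 1.06 for F7. With the slide as a block the changes were −1.28, −1.05, −0.96, −0.89 and 0.80 and 1 gene of all tested was called. No member was called when any single DMSO array or 42 µM replicate 2 was left out. The number of all genes called was then 244, 0, 415 and 300 without DMSO replicates 1 to 4, and 0 without 42 µM replicate 2. In these fits 1 to 2 coagulation genes higher and 2 lower, and 1 to 2 complement genes higher and 2 lower, had an unadjusted p below 0.05 with the limit on size. The share of all genes at those limits was not worked out for these fits, so the counts show nothing particular to the members. Without 42 µM replicate 1 none of the 5 genes was called, with adjusted p of 0.0555 to 0.0789 from limma. C2 and CD46 were then called higher on other probes than their brightest, among 460 of all genes called. Without 42 µM replicate 3 C8A and C4BPA were not called, and without 42 µM replicate 4 F7 was not. With any single array left out, CPB2 stayed between −1.34 and −0.95, KNG1 between −1.10 and −0.89, C4BPA between −1.05 and −0.81, C8A between −0.97 and −0.83 and F7 between 0.71 and 0.88.

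**Figure D5:**
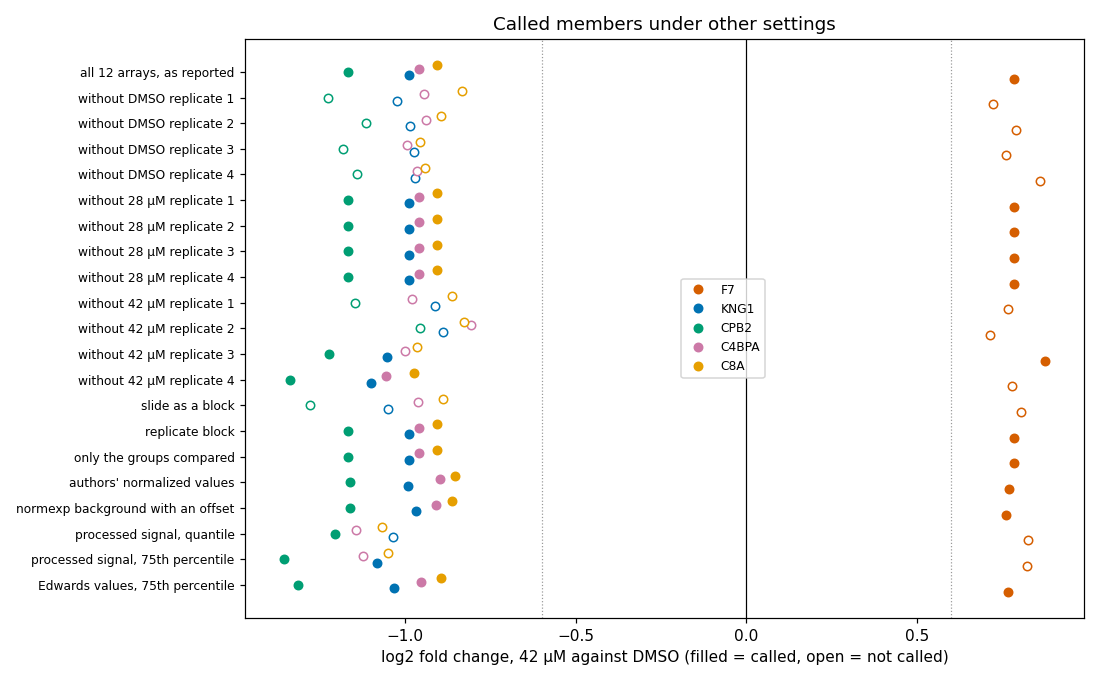
Log2 fold change at 42 µM against DMSO of the 5 called members with all 12 arrays, with each array left out and under other settings, filled where the gene was called and open where it was not. The values stay between −1.36 and −0.81 for the 4 genes that fell and between 0.71 and 0.88 for F7, while all points are open when any single DMSO array is left out.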

How the data were processed

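RNA of 12 HuH-7 cultures was measured on 1-colour Agilent 4x44K arrays. The authors deposited, for each array, the output of Feature Extraction, with mean and local background intensities, a processed signal and flags (version 10.7.3.1 per the file headers). They also deposited log2 values that the authors had background-corrected (Edwards) and quantile normalized. An intensity is the brightness of a spot. The array has no read depth. Its precision depends on how many arrays there are, and dim probes are measured less well. Samples were grouped by the treatment in their titles.

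Intensities were read in R 4.3.3 with the data.table package (1.17.8). After the study's methods, limma 3.58.1 corrected the background (Edwards) and normalized by quantiles, with outlier-flagged and control spots excluded beforehand. The log2 values of replicate spots were averaged, leaving 41000 gene probes. Of these 33467, of 24168 gene names, passed the filter of 2 of 4 arrays in any group. One limma model (lmFit, eBayes) held all 12 arrays in 3 groups. P-values are two-sided and were adjusted by Benjamini-Hochberg across every probe tested in a comparison. The methods name a 2-fold limit and the results a log2 limit of 0.6, so the latter was used and a limit of 1 was an alternative. Genes carry the names printed in the files. Of the 68 member probes, 67 matched a RefSeq accession, all to the member. Full values are given for members called, for members whose 42 µM and DMSO arrays do not overlap, and for the 5 of each list with the largest change at 42 µM. The members and lists were chosen with earlier results of these data known, and FGA's second probe was described because it made the call.

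The fit was tested on simulated data. Alternatives tried were the processed signal with quantile or 75th percentile scaling, normexp (offset 50), Edwards values scaled to the 75th percentile, the authors' values, no filter or a strict one, slide or replicate number as a block, only the groups compared, other fold limits, only the brightest probe, SERPING1 and VTN moved to coagulation, another detection flag and each array left out. Promoters were read with Python 3.11.15 and pandas 2.3.3 and plots drawn with numpy 2.4.6 and matplotlib 3.10.9.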

Additional observations from a re-analysis of the deposited data

Results flagged for a closer look

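In 4 of the 117 groups of 4 arrays examined, made of the 39 tested members in each of the 3 groups, a single array lay far from the others for its gene, by Dixon's ratio of the gap to the range at its 95% critical value. Chance gives about 1 in 20 such groups. C9 was at 6.02 on 42 µM replicate 1, and the nearest of the other 42 µM arrays was at 6.37, both close to background. MASP2 was at 7.82 on 42 µM replicate 3, above the nearest at 7.38. C5 was at 12.11 on 42 µM replicate 2, above the nearest at 11.70. PROS1 was at 10.75 on DMSO replicate 3, above the nearest at 10.61. None of these genes was called in any comparison.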

How the results depend on the processing

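No called value changed its sign under any alternative. With an array left out it could not, since the 42 µM and DMSO arrays of these genes do not overlap. Medians near 0 did change sign. They ran from −0.02 to 0.13 for coagulation and −0.07 to 0.06 for complement at 42 µM and from −0.01 to 0.14 for complement at 28 µM. At 42 µM the number of coagulation genes called, 3 with the settings of the report, was 1 with the processed signal and quantile normalization, 0 with the slide as a block, 1 with a log2 limit of 1 and 0 to 3 with an array left out. The number of complement genes called, 2 in the report, was 0 with the processed signal under either scaling, 0 with the slide as a block, 0 with a log2 limit of 1 and 0 to 3 with an array left out. The number of all genes called, 802 in the report, was 415 with the processed signal and quantile normalization, 576 with its 75th percentile scaling and 329 with a log2 limit of 1. With the slide as a block it fell to 1. An unadjusted p below 0.05 and the limit on size then held for 1 coagulation gene higher and 2 lower and for 1 complement gene higher and 2 lower. The share of all genes at those limits was not worked out for that fit. Without DMSO replicate 2 or 42 µM replicate 2 no gene of the array was called. At 28 µM the coagulation count was 0 to 1 and the complement count 0 to 3 with an array left out, the higher values without 28 µM replicate 4. The medians of the lists moved by less than the spread between arrays throughout. With the replicate number as a block, 4 coagulation genes, SERPINC1 being the addition, and 3 complement genes, C2 being the addition, were called at 42 µM, where the number of all genes called was 1205 against 802, and 0 at 28 µM. The correlations of same-numbered arrays ran from −0.46 to 0.62, and 5 of 12 arrays were closest to their own number. The labels give only a replicate number, and these values do not settle whether same-numbered samples belong together. The main model did not pair them. With the other detection flag, 17 coagulation and 21 complement genes were detected on all arrays. The causes of these differences were not tested. Signal over background limits F9 and C6, which were not tested, and KLKB1, F13B, C8B, C8G and C9.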
